A study of Mus musculus with 88 samples.

Results

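The aggregating proteoglycans of the brain's extracellular matrix and the proteins that hold them together were examined as a set of 7 genes: the lecticans Acan (aggrecan), Bcan (brevican) and Ncan (neurocan), tenascin-R (Tnr), and the link proteins Hapln1, Hapln2 and Hapln4. The genes were taken by name, through the Ensembl identifiers of the deposited tables, and not by any measured value. All 7 were measured in each of 3 brain regions, among 21767 genes that entered a fit in at least 1 region. RNA-seq was performed on 88 libraries from 81 male mice, 32 from the medial prefrontal cortex (mPFC), 28 from the bed nucleus of the stria terminalis (BNST) and 28 from the ventral hippocampus (vHPC), and 7 mice gave libraries from more than 1 region. The mice belonged to the inbred strains C57BL/6NCrl (B6) and DBA/2NCrl (D2), and were either undefeated controls or had undergone chronic social defeat stress (CSDS), in which a mouse is repeatedly attacked by a larger aggressor. They were 8 weeks old, and tissue was taken 6 to 8 days after the CSDS. Defeated mice were classed by their social approach as resilient, if they behaved as controls of their own strain did, or as susceptible, if they avoided the social target. For the mPFC there were 6 B6 mice of each class, together with 6 controls and 8 susceptible mice of D2. For the BNST there were 5 mice in each of the 6 classes other than resilient D2, which had 3. For the vHPC there were 6 controls, 8 resilient and 3 susceptible mice of B6, and 6 controls and 5 susceptible mice of D2. Every library came from dissected tissue, so a lower level can reflect fewer cells of a type or less RNA per cell, which cannot be told apart. Each p-value sets a difference against the spread between these mice. In the mPFC and vHPC that spread is what remained after the authors had adjusted the values for library preparation sets. In the vHPC they had also adjusted for sequencing sets. The main fits make no allowance for this adjustment, so their p-values can be too small.

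Lecticans are chondroitin sulfate proteoglycans that bind the long sugar hyaluronan at one end and tenascin-R at the other. Link proteins clamp the lectican to hyaluronan, and tenascin-R joins several lecticans into a lattice. In its densest form this lattice is the perineuronal net, which encloses mainly the fast-spiking interneurons that express parvalbumin and, in the hippocampus, also neurons of field CA2. Hapln2 differs from the other link proteins in place, as it is made largely by oligodendrocytes and sits at the nodes of Ranvier of myelinated axons.

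The lecticans and link proteins lie in pairs in the mouse genome (GRCm38 coordinates, GENCODE M21 annotation). Bcan (chr3:87987531-88000230, minus strand) and Hapln2 (chr3:88021750-88027583, minus strand) were 21.5 kb apart, and Ncan (chr8:70093085-70120873, minus strand) and Hapln4 (chr8:70083457-70090862, plus strand) ended 2.22 kb apart. Hapln1 (chr13:89539796-89611652, plus strand) lay 43.7 kb from Vcan, the lectican versican, which is not a member. Acan (chr7:79053483-79115099, plus strand) ended 2 bp from the link protein gene Hapln3 on the other strand, so reads near that end can be assigned to the wrong gene if strand was not used in counting. No protein-coding gene lay between the partners of a pair. Tnr (chr1:159523769-159931729, plus strand) shared 3.44% of its exon bases with Gm38039 on the other strand. Values of all these genes are sums over the exons of the gene.

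Because Hapln2 turned out to be the member that differed most between groups, the 300 bases around its start (RefSeq, GRCm38.p6, chr3:88027462-88027761, minus strand) are given. Capitals mark ACAAT or its reverse complement ATTGT, the core letters recognised by SOX transcription factors, of which Sox10 directs the oligodendrocyte lineage.

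Hapln2: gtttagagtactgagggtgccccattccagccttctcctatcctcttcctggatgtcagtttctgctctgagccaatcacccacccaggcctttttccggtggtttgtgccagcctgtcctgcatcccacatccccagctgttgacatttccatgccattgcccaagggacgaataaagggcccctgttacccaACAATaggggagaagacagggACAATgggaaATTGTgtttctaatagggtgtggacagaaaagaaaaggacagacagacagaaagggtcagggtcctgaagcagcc

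The letters occurred 3 times in this window. They were present on either strand in 31% of 32851 mouse promoters of the same length, and in 2 of the 6 members with an entry, Hapln1 and Hapln2. A match of letters is a description of the sequence and does not show a bound site.

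Levels of different genes were compared per kilobase of exon, as log2 CPM (read counts scaled to a common library total) per kb averaged over the libraries of a region. Neurocan, brevican and tenascin-R, the matrix components found widely in adult brain, were the 3 most abundant members in every region, and aggrecan was the least abundant. In the mPFC, Ncan stood at 5.27, Tnr at 4.8, Bcan at 4.73, Hapln4 at 2.87, Hapln1 at 2.00, Hapln2 at 1.28 and Acan at -0.23. Tnr and Bcan were hardly separated there, since Tnr was higher in 22 of 32 libraries and the order turned when the longest transcript replaced all exons as the length. In the vHPC, Bcan stood at 6.07, Ncan at 5.37, Tnr at 4.95, Hapln4 at 3.84, Hapln2 at 2.46, Hapln1 at 1.73 and Acan at -0.36. Hapln2 exceeded Hapln1 in 21 of 28 vHPC libraries and Hapln4 exceeded Hapln2 in 24 of 28, and the exceptions fell in particular groups. Hapln4 was above Hapln2 in 2 of 6 B6 controls (means per kb of 3.2 and 3.3) and in every other vHPC library. Hapln2 was above Hapln1 in every B6 library, in 4 of 6 D2 controls and in 0 of 5 susceptible D2 mice (means of 1.49 and 1.76). In the BNST, Bcan (5.69) and Ncan (5.54) could not be ordered, with Bcan higher in 16 of 28 libraries, and Tnr (4.75), Hapln4 (3.67), Hapln2 (3.36), Hapln1 (1.8) and Acan (-0.14) followed. The 3 regions were prepared with different library kits and normalized separately, so the order of genes within a region was read and no gene was tested between regions.

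**Figure D1:**
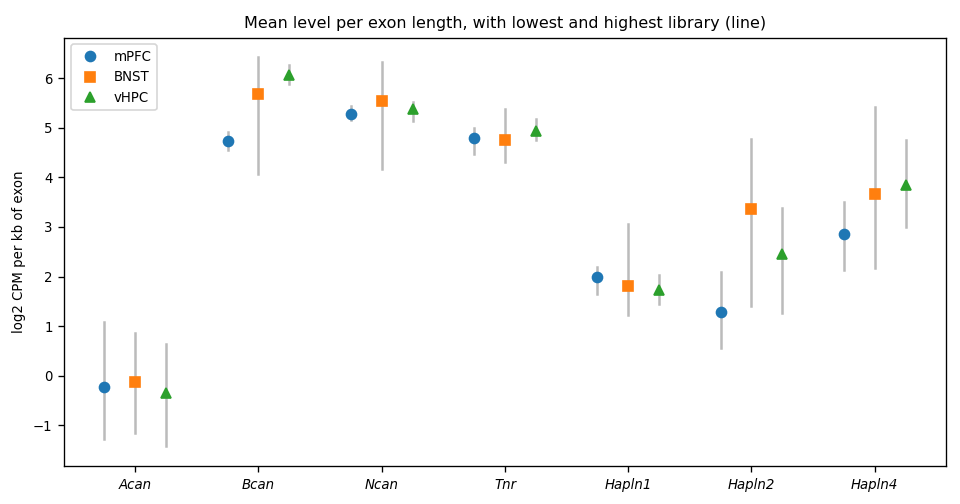
Mean level of each member per exon length (log2 CPM per kb, vertical axis) in the mPFC, BNST and vHPC, with a grey line from the lowest to the highest library. Ncan, Bcan and Tnr sit between 4.73 and 6.07 in every region and Acan between -0.36 and -0.14.

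The members also differed in how much they varied between mice of the same group. In the mPFC, the pooled SD within groups (log2 CPM) was 0.08 for Bcan and for Ncan, 0.10 for Hapln1 and 0.12 for Tnr, under the median of 0.15 over all genes, whereas it was 0.25 for Hapln4, 0.31 for Hapln2 and 0.59 for Acan. In the vHPC it ran from 0.07 for Tnr to 0.18 for Hapln4, beside a median of 0.14. In the BNST it was 0.24 to 0.45 for Tnr, Hapln1, Ncan and Bcan but 0.64 for Acan, 0.82 for Hapln4 and 0.90 for Hapln2, beside a median of 0.42. Acan in the mPFC and Acan, Hapln2 and Hapln4 in the BNST thus gave the widest intervals in all later comparisons.

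**Figure D2:**
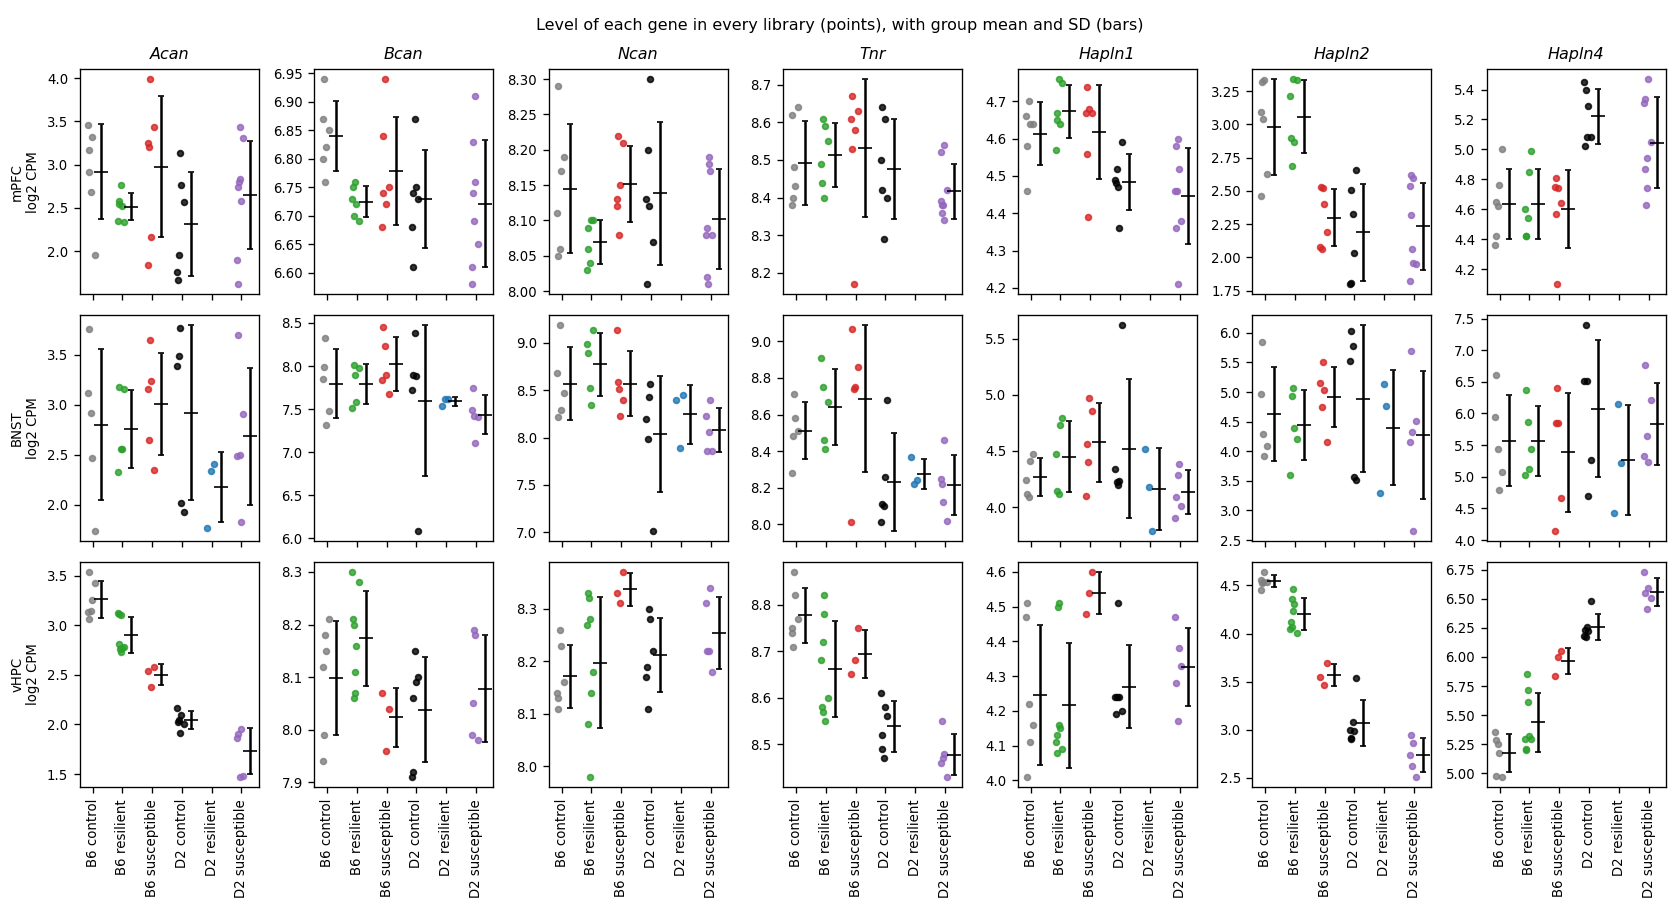
Level of the 7 members (log2 CPM, vertical axis) in every library, by region and by group of strain and phenotype, with bars for the mean and SD. Hapln2 is lower in susceptible than in resilient B6 mice in the mPFC with no overlap, and in the vHPC every susceptible B6 mouse lies below every B6 control for Hapln2 and Acan and above every B6 control for Hapln4. How many of all genes are separated in this way was not counted.

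In the main fit of the mPFC, CSDS was accompanied by a lower level of Hapln2 in susceptible B6 mice and by no detected difference in the lecticans or tenascin-R. The Hapln2 call was lost in several other fits, which are given below. Hapln2 ran from 2.46 to 3.33 log2 CPM in B6 controls (median 3.06), from 2.69 to 3.34 in resilient mice (median 3.05) and from 2.06 to 2.53 in susceptible mice (median 2.3). The susceptible mice lay wholly under the resilient mice, and their 2 highest values overlapped the lowest control. How many of all genes had no overlap was not counted in this or any other comparison. Against controls, Hapln2 fell by 0.68 on the log2 scale (SE 0.18, limma adjusted p = 0.04), and it was the only 1 of the 7 members to pass, where 2.22% of all genes passed. Against resilient mice it fell by 0.76 (adjusted p = 0.0306), again as the only member, where 2.02% of all genes passed. Resilient mice against controls gave 0 of 7 members by limma (1 at an unadjusted p under 0.05, Bcan with a difference of -0.12, 95% interval -0.22 to -0.01) and 0% of all genes. Without the adjustment, 731 genes were under 0.05 in that comparison.

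The other 6 members stayed close to controls in the mPFC of susceptible B6 mice. The intervals of their differences were narrow for Ncan (-0.09 to 0.10), Tnr (-0.10 to 0.18), Hapln1 (-0.12 to 0.13) and Bcan (-0.17 to 0.04), intermediate for Hapln4 (-0.32 to 0.26) and wide for Acan (-0.62 to 0.74). Acan ran from 1.96 to 3.46 in controls (median 3.04) and from 1.84 to 3.99 in susceptible mice (median 3.22). These 2 ranges overlapped almost entirely, and a change of Acan of up to about the bounds of its interval was not detectable.

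In the mPFC of D2 mice, controls included, Hapln2 was also low. It was 1.8, 1.81, 2.03, 2.33, 2.51 and 2.66 in D2 controls and ran from 1.82 to 2.62 in susceptible D2 mice (median 2.19). Controls of D2 fell by 0.79 below those of B6 (SE 0.18, adjusted p = 0.00106), with an overlap of their ranges between 2.46 and 2.66. Hapln4, a link protein that binds mainly brevican, was higher in D2 controls (5.02, 5.08, 5.08, 5.29, 5.4 and 5.45) than in B6 controls (4.36 to 5.00, median 4.64), by 0.58 (SE 0.14, adjusted p = 0.00229), and these ranges did not overlap. Hapln2 and Hapln4 were the 2 of 7 members that passed between the control groups (Hapln1 also did without B6 control replicate 6, at -0.16, and Bcan without D2 control replicate 4, at -0.14), where 27.79% of all genes passed.

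Susceptible D2 mice differed from D2 controls in 0 of 7 members in the mPFC (limma, 0 at an unadjusted p under 0.05), where 0% of all genes passed and 734 were under 0.05 without adjustment. The difference of Hapln2 was 0.04 (95% interval -0.29 to 0.38). The strain by susceptibility interaction, which is the difference in D2 minus the difference in B6, was 0.73 for Hapln2 (unadjusted p = 0.00545, adjusted p = 0.441 by limma). It passed for 0 of 7 members and 0% of all genes (1 member and 1766 genes at an unadjusted p under 0.05), so the strains were not shown to differ in this response.

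The mPFC libraries had been prepared in 5 sets, and 4 sets held both groups of each of these comparisons. Hapln2 was lower in susceptible than in control B6 mice in 4 of 4 sets (by -0.78 to -0.52) and lower than in resilient mice in 4 of 4 (by -1.20 to -0.39), but with the set as a covariate neither call held (-0.68 and -0.73, adjusted p = 0.10 and 0.101). The D2 controls were lower in 3 of 4 sets (-1.06 to 0.03), and Hapln4 was higher in D2 controls in 4 of 4 (0.08 to 0.94). The call for Hapln2 between susceptible and control B6 mice was lost in 8 of the 12 fits that left out a library (control replicates 1, 3, 4 and 5, susceptible replicates 2, 3, 5 and 6), with differences of -0.79 to -0.61 over all 12. That against resilient mice was lost in 6 of 12 (resilient replicates 2, 3 and 4, susceptible replicates 2, 5 and 6; -0.83 to -0.70). With the start of the mouse ID as a covariate, a code whose meaning the labels do not give, the Hapln2 differences were -0.24 (adjusted p = 0.868) and -0.32 (adjusted p = 1). Code and susceptibility were nearly the same split: 5 of 6 susceptible B6 mice carried the prefix C7, against 1 of 6 controls, which had the lowest control value of Hapln2 (2.46), and 0 of 6 resilient mice. With so few exceptions, code and susceptibility largely cannot be told apart.

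In the vHPC, 5 members passed between susceptible and control B6 mice, 2 lower and 3 higher, where 40.64% of all genes passed. A limit applies to every B6 comparison with controls in this region: no library set held both a B6 control and a defeated B6 mouse, so preparation set and defeat cannot be told apart directly. Neither did any set hold controls of both strains. The B6 susceptible group, moreover, consisted of 3 mice.

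Hapln2 and Acan were the members that were lower in this region. Hapln2 ran from 4.45 to 4.64 log2 CPM in B6 controls (median 4.54) and was 3.47, 3.55 and 3.69 in susceptible mice, a fall of 0.97 on the log2 scale (SE 0.12, adjusted p = 6.16e-07). Acan, the lectican most restricted to perineuronal nets, ran from 3.06 to 3.54 in controls (median 3.2) and was 2.38, 2.54 and 2.58 in susceptible mice, a fall of 0.76 (SE 0.12, adjusted p = 3.09e-05). In both genes every susceptible mouse lay under every control, and how many of all genes were so separated was not counted.

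The members that were higher were Hapln4, Hapln1 and Ncan. Hapln4 ran from 4.97 to 5.36 in controls (median 5.22) and was 5.84, 6.00 and 6.05 in susceptible mice, an increase of 0.79 (SE 0.12, adjusted p = 2.69e-05), with no overlap. Hapln1, the main link protein of perineuronal nets, was 0.30 higher (adjusted p = 0.0317), and its highest controls, at 4.47 and 4.51, reached the range of the susceptible mice (4.48, 4.54 and 4.6). Ncan was 0.17 higher (adjusted p = 0.0396), with controls of 8.11 to 8.26 and susceptible mice at 8.31, 8.33 and 8.37. The calls of Hapln1 and Ncan were marginal, as Hapln1 passed in 3 and Ncan in 2 of the 9 fits that left out a library, while Hapln2, Acan and Hapln4 passed in 9 of 9. Hapln1 was lost without control replicates 1, 2 or 5 or any susceptible mouse (0.25 to 0.33), and Ncan without control replicates 2, 3, 5 or 6 or any susceptible mouse (0.15 to 0.18). Bcan (-0.08, 95% interval -0.22 to 0.07) and Tnr (-0.08, -0.19 to 0.03) did not pass.

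Resilient B6 mice lay between controls and susceptible mice in the medians of Hapln2, Acan and Hapln4. Hapln2 ran from 4.01 to 4.46 in resilient mice (median 4.18) and fell by 0.34 against controls (adjusted p = 0.0109), and Acan ran from 2.73 to 3.13 (median 2.8) and fell by 0.36 (adjusted p = 0.00954). These were the 2 of 7 members that passed, both lower, where 10.84% of all genes passed. Both ranges crossed those of the controls. All 6 B6 controls were in sequencing set 1 and 7 of 8 resilient mice in sequencing set 2, and with that set as a covariate both differences were -0.25 and neither passed (adjusted p = 0.461 for Hapln2 and 0.484 for Acan). Hapln4 (5.20 to 5.85, median 5.31) had a difference of 0.27 and did not pass (adjusted p = 0.0677), except in the fits without resilient replicate 5 or 6 (0.30 in both, adjusted p = 0.0416 and 0.0377). Tnr, with a difference of -0.11 (adjusted p = 0.0782), passed without resilient replicate 4 or 8 (-0.14 and -0.13, adjusted p = 0.0215 and 0.042).

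Susceptible B6 mice also differed from resilient ones, in 4 of 7 members where 27.63% of all genes passed. Hapln2 fell by 0.63 (limma adjusted p = 0.00129) and Acan by 0.40 (adjusted p = 0.0147), both with no overlap between the groups. The share of all genes without overlap was not counted here either. Hapln4 was 0.52 higher (adjusted p = 0.0052) and Hapln1 0.32 higher (adjusted p = 0.0246). A single library set held both groups, with 3 libraries, and within it the differences were -0.47 for Hapln2, -0.19 for Acan, 0.74 for Hapln4 and 0.48 for Hapln1. The call of Acan was lost without susceptible replicate 1 (-0.34, adjusted p = 0.0787), and that of Hapln1 without any 1 of the 3 susceptible mice (adjusted p = 0.0523 to 0.113). Ncan, at 0.14 (adjusted p = 0.0816), passed without resilient replicate 7 (0.16, adjusted p = 0.0423).

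The largest vHPC differences of Hapln2, Acan and Hapln4 were those between the control strains. Between D2 and B6 controls, 4 of 7 members (57.1%) passed, 3 lower and 1 higher, a share close to the 59.32% of all genes that passed. The ranges of the strains did not overlap in these 4, and how many of all genes had no overlap was not counted. Hapln2 fell by 1.47 in D2 (2.90 to 3.54, median 3.00; SE 0.09, adjusted p = 7.15e-13), Acan by 1.22 (lowest 1.91, mean 2.04 ± 0.09 SD, n = 6; SE 0.10, adjusted p = 6.31e-11) and Tnr by 0.24 (8.47 to 8.61 against 8.71 to 8.87 in B6; adjusted p = 6.5e-05). Hapln4 was 1.08 higher (6.17 to 6.48, median 6.22; SE 0.10, adjusted p = 9.25e-10). Bcan (-0.06), Ncan (0.04) and Hapln1 (0.02) did not pass, with intervals within -0.17 to 0.21.

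Within D2, susceptible mice differed from controls in 0 of 7 members in the vHPC by limma (3 at an unadjusted p under 0.05), where 4.28% of all genes passed. The 3 were Hapln2, Acan and Hapln4. Hapln2 was 2.51, 2.62, 2.74, 2.86 and 2.95 in susceptible D2 mice, with a difference of -0.34 (adjusted p = 0.0508). Acan was 1.47, 1.48, 1.86, 1.9 and 1.95, with a difference of -0.31 (adjusted p = 0.091), and Hapln4 was 6.41, 6.51, 6.55, 6.59 and 6.73, with a difference of 0.30 (adjusted p = 0.108). Each of these ranges crossed that of the D2 controls. The only library set with both groups held 2 libraries, in which the differences were 0.05 for Hapln2, -0.13 for Acan and 0.32 for Hapln4. Hapln2 passed when D2 control replicate 5 or 6 or D2 susceptible replicate 5 was left out (adjusted p = 0.0311 to 0.0473).

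The interaction in the vHPC passed for Hapln2 alone (0.64, SE 0.15, adjusted p = 0.0455), where 0.782% of all genes passed. Its difference was -0.97 in B6 and -0.34 in D2. The call held in 4 of the 20 fits that left out a library. In the other 16, which left out B6 control replicates 1, 2, 4, 5 or 6, any B6 susceptible mouse, D2 control replicates 1, 3, 4, 5 or 6, or D2 susceptible replicates 1, 3 or 5, the value was 0.58 to 0.70 with adjusted p = 0.0553 to 0.193. Acan (0.45, adjusted p = 0.161) and Hapln4 (-0.49, adjusted p = 0.147) did not pass.

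**Figure D3:**
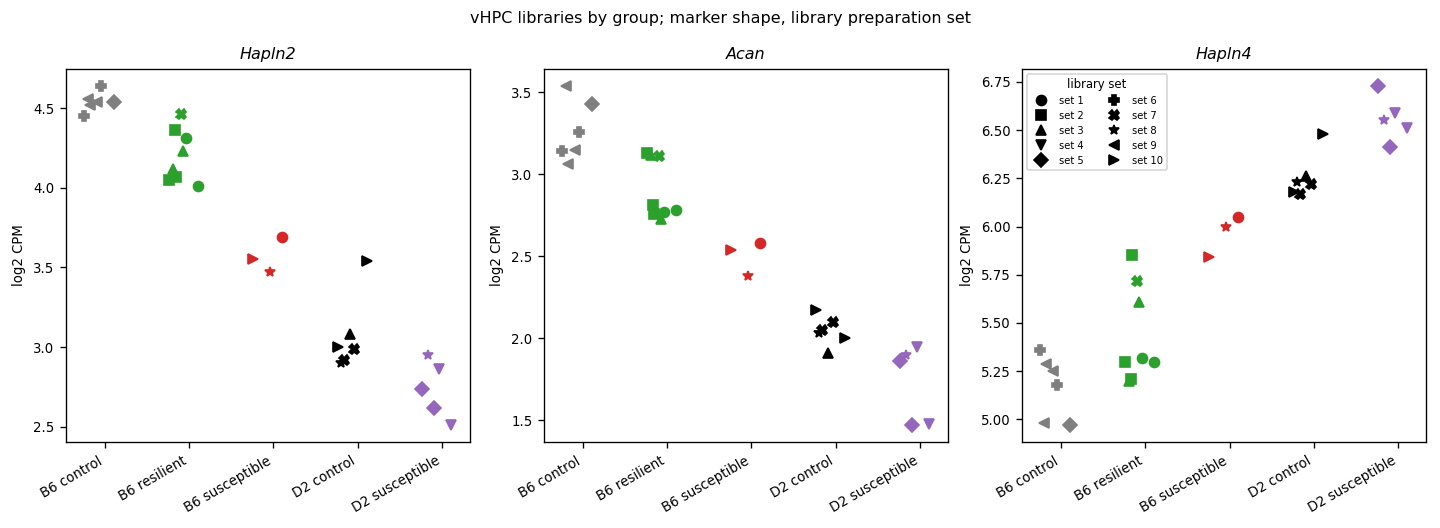
Hapln2, Acan and Hapln4 in the vHPC (log2 CPM, vertical axis) by group, 1 point a library, with the marker shape giving the library preparation set. B6 controls occur in sets that hold no defeated B6 mouse, and Hapln2 steps from a median of 4.54 in B6 controls to 3.00 in D2 controls.

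With the library set as a covariate the vHPC calls between B6 groups were lost while the estimates stayed on the same side. For susceptible mice against controls, Hapln2 had a difference of -1.36 (SE 0.32, adjusted p = 0.0547), Acan one of -1.20 (adjusted p = 0.128) and Hapln4 one of 1.04 (adjusted p = 0.245). The median SE over all genes was 2.91 times that without the covariate. Between D2 and B6 controls, the same fit gave differences of -1.89 for Hapln2, -1.73 for Acan and 1.29 for Hapln4. Only 1 of the 6 B6 controls shared its library set with another group, namely with 2 susceptible D2 mice. Every difference from B6 controls in this fit therefore rests on that 1 library. The fit cannot show whether these differences hold apart from the library set.

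**Figure D4:**
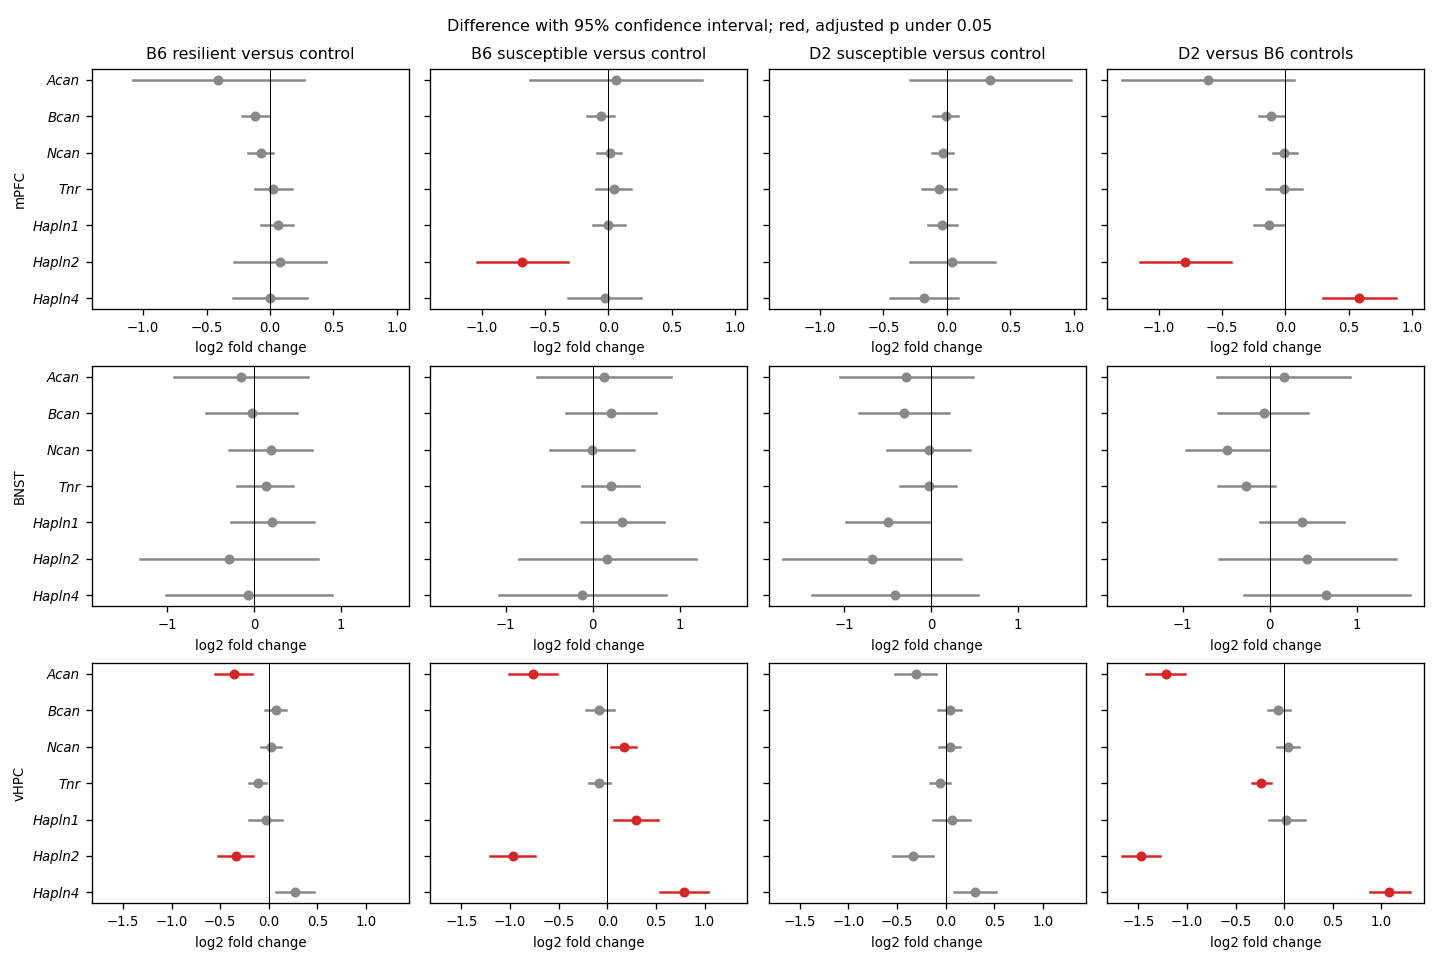
Differences of the 7 members between groups (log2 fold change, horizontal axis, with 95% intervals) in 4 comparisons and 3 regions, red where the adjusted p was under 0.05. Red points are Hapln2 in the mPFC and Hapln2, Acan and Hapln4 among others in the vHPC, and none in the BNST.

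In the BNST, where the deposited table holds counts, no member passed in any comparison. The libraries had 11825757 to 25793910 counts (median 15273698), and the median count of a member per library ran from 94.5 (Acan) to 5280.5 (Tnr). By edgeR's quasi-likelihood test and by DESeq2, 0 of 7 members passed in resilient or susceptible B6 mice against controls (0% and 0% of all genes by edgeR), in resilient or susceptible D2 mice against controls (0% and 0%), and in susceptible against resilient mice of B6 (0.00571%, 1 gene) or D2 (0%). Between D2 and B6 controls 0 of 7 passed, where 2.51% of all genes did, and in the interaction 0 of 7 and 0% of genes passed. Without the TMM scaling, an alternative added after the data were seen, 0 of 7 members and 1416 of 17515 genes passed in the interaction. The TMM factors of susceptible B6 mice (0.656 to 0.97) were all below those of susceptible D2 mice (up to 1.27). At an unadjusted p under 0.05, 3 values were counted over these comparisons: Hapln1 in susceptible D2 mice (-0.50, adjusted p = 0.804) and in the interaction (-0.84, adjusted p = 0.296), and Ncan between controls (-0.49, adjusted p = 0.37). All 3 leaned on D2 control replicate 2, which stood at 5.62 for Hapln1 where the other D2 controls were at 4.2 to 4.34, and without it they were -0.10, -0.44 and -0.30.

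For all genes of the BNST, the number under an unadjusted 0.05 was 230 to 1323 for the 6 comparisons within a strain and 2339 between controls, and 2004 for the interaction. DESeq2 called 0 to 42 genes within a strain, 660 between controls and 223 in the interaction. The BNST libraries also differed in cell type markers. The summed level of 8 excitatory cortical neuron markers ran from 128 to 1060 CPM and that of 7 striatal neuron markers from 858 to 8030 CPM, against 512 to 961 and 164 to 608 CPM in the mPFC. The part of these markers in the spread of the members was not tested. The intervals were wide, and Hapln2 shows this. It was 3.92, 4.09, 4.29, 4.97 and 5.85 in B6 controls and had a median of 5.03 and a maximum of 5.5 in the 5 susceptible B6 mice. These ranges overlapped, with a difference of 0.17 (SE 0.50). D2 controls split into 3.52 and 3.56 on one side and 5.53, 5.78 and 6.03 on the other, and susceptible D2 mice ran from 2.66 to 5.69 (median 4.33). In data simulated at the size of the B6 susceptible and control comparison, 100 random genes were changed by 1 on the log2 scale. Of these, 39% were recovered in the BNST, against 94% in the mPFC and 95% in the vHPC. At a change of 0.5 the shares were 3%, 81% and 67%. The simulated data held no library sets. These shares are averages over genes and do not give the detection of Hapln2, whose pooled SD in the BNST was 0.90 beside a median of 0.42.

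Acan, Hapln2 and Hapln4 moved together between BNST mice of the same group. Over 28 libraries, with group means removed, the correlation was 0.88 for Acan and Hapln2, 0.82 for Hapln2 and Hapln4 and 0.77 for Acan and Hapln4. The same pairs had correlations of 0.21, -0.25 and -0.45 over 32 mPFC libraries and 0.25, 0.29 and -0.21 over 28 vHPC libraries. These are descriptions, as the points share dissection, depth and library preparation.

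The level of Hapln2 moved with markers of mature oligodendrocytes, the myelinating cells, described here for the mPFC and vHPC, where Hapln2 passed, and below for the BNST. A list of 12 markers, among them Mbp, Mobp, Mog, Mag, Opalin and Ermn, was used. In susceptible against control B6 mice, 10 of the 12 fell in the mPFC (median -0.73 over the list, 0 over all genes), where 2.22% of all genes passed. In the vHPC 12 of 12 fell (median -0.85, -0.01 over all genes), where 40.64% of all genes passed. Between D2 and B6 controls 12 of 12 fell in both regions (medians -0.85 and -1.26), where 27.79% and 59.32% of all genes passed. Their summed level was 1830 to 3510 CPM in mPFC B6 controls, 1330 to 2040 in susceptible B6 mice and 1230 to 1780 in D2 controls. In the vHPC it was 3800 to 4280, 2190 to 2500 and 1470 to 2300 CPM. Of 8 markers of oligodendrocyte precursors, 0 passed in the mPFC of susceptible B6 mice and 1 rose and 1 fell in the vHPC, beside 2.22% and 40.64% of all genes.

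The gap between Hapln2 and the mean of the 12 markers varied less between groups than Hapln2 itself in the comparisons where Hapln2 passed. Those comparisons were picked for a large Hapln2 difference, which favoured this result beforehand. Where Hapln2 did not pass, the gap differed less than Hapln2 in some comparisons and more in others. In the mPFC the gap was -3.74 in B6 controls, -3.62 in resilient, -3.68 in susceptible B6 mice and -3.63 in D2 controls, while the marker mean differed by -0.74 between susceptible and control B6 mice and by -0.89 between control strains. In the vHPC it was -2.65 in B6 controls, -2.77 in susceptible B6 mice and -2.81 in D2 controls, while the marker mean differed by -0.84 and -1.31. In the BNST, where Hapln2 did not pass, the marker mean differed from controls by 0.58 in susceptible B6 mice and by -0.73 in susceptible D2 mice. The gap differed there by -0.29 and 0.11. Over 17 comparisons in 3 regions, the gap differed by -0.29 to 0.14. The measure was chosen after the values of Hapln2 had been seen. In two-sided exact permutation tests over mice, the lowest p was 0.0281, for D2 against B6 controls in the vHPC (a difference of -0.16), and 0.478 after adjustment over the 17 comparisons. Susceptible B6 mice in the vHPC and resilient D2 mice were 3 each, which leaves few ways to relabel the mice. Comparisons with these groups could hardly pass after the adjustment, so no conclusion is drawn from their lack of a call. What part the oligodendrocyte content of a dissection has in the Hapln2 differences was not tested.

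**Figure D5:**
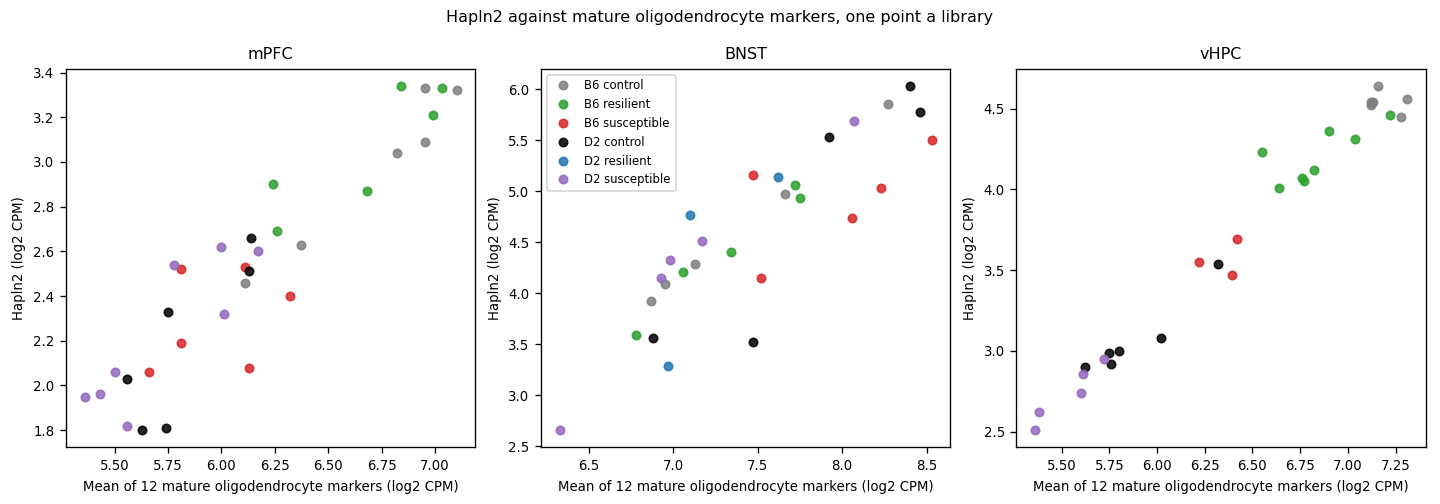
Hapln2 (log2 CPM, vertical axis) against the mean of 12 mature oligodendrocyte markers (log2 CPM, horizontal axis) in the mPFC, BNST and vHPC, 1 point a library, coloured by group. In the vHPC the B6 controls lie at the upper right, at Hapln2 of 4.45 or more, and the susceptible D2 mice at the lower left, at 2.95 or less.

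The genes whose deviations from the group means were most like those of Hapln2, averaged over the 3 regions among 13399 genes, were Mobp (mean correlation 0.87), a myelin protein gene, Arhgef10 (0.87) and Erbb3 (0.85), a neuregulin receptor. For Hapln4 they were Mast4 (0.82), Vamp1 (0.81) and Syt2 (0.80), the last 2 being synaptic vesicle proteins of fast-releasing terminals. Acan was most like Snrk (0.74), Gfap (0.69), the astrocyte intermediate filament, and Fgd3 (0.68). Bcan went with Abtb2 (0.78), Tab1 (0.78) and 1500009C09Rik (0.75), and Ncan with Unc13a (0.73), Ap3d1 (0.66) and Pde4dip (0.65). Tnr went with Marf1 (0.76), Plxna4 (0.75) and Cbl (0.71), and Hapln1 with Pds5b (0.75), Cnot7 (0.74) and Sgcb (0.70). These likenesses rest on 32, 28 and 28 libraries and have no test.

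Markers of the cells that bear perineuronal nets were measured beside Acan. Pvalb, which encodes parvalbumin, had a difference of -0.07 in the vHPC of susceptible B6 mice (adjusted p = 0.599) and rose by 0.30 in D2 controls against B6 controls (adjusted p = 0.00406), the comparison in which Acan fell by 1.22. In the mPFC, Pvalb rose by 0.45 in D2 controls (adjusted p = 0.0149). Of 9 fast-spiking interneuron markers in the vHPC, 3 rose and 1 fell in susceptible B6 mice, beside 40.64% of all genes (summed level 707 to 728 CPM, against 588 to 652 in controls). Of 6 CA2 markers, 3 fell and 0 rose, with summed levels of 98.1 to 104 CPM against 104 to 121, while Rgs14, which marks CA2 pyramidal cells, had a difference of 0 (adjusted p = 0.973).

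Other cell type markers moved in the same vHPC comparison as Acan, Hapln2 and Hapln4, in which 40.64% of all genes passed. In susceptible against control B6 mice, 6 of 8 excitatory neuron markers rose (summed 1060 to 1110 CPM against 892 to 941), 5 of 7 endothelial markers fell (241 to 266 against 306 to 347), 5 of 8 microglial markers fell (265 to 278 against 309 to 323), 4 of 8 astrocyte markers fell and 1 rose (5830 to 6190 against 6230 to 6830), and 3 of 6 choroid plexus markers fell (26.4 to 81.2 against 41.1 to 2090). In the mPFC, 0 of 7 striatal neuron markers passed in susceptible B6 mice (median difference -0.92, summed 171 to 284 CPM against 233 to 547). Their part in the differences of the members was not tested.

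Among the wider matrix machinery, a list of 70 further genes covered hyaluronan metabolism, chondroitin sulfate synthesis, other proteoglycans, proteases with their inhibitors, and receptors, as well as Vcan, Hapln3 and tenascin C (Tnc), the nearest relatives of the members. In the mPFC, 64 were tested. In susceptible B6 mice, 2 rose and 2 fell against controls (2.22% of all genes), led by the aggrecan-cleaving protease Adamts4 (-0.78, adjusted p = 0.0142), the receptor phosphatase Ptprf (0.39, adjusted p = 0.0375) and the xylosyltransferase Xylt2 (0.18, adjusted p = 0.0383), which starts the sugar chains. Against resilient mice, 1 rose and 2 fell (2.02% of all genes), namely Xylt2 (0.21, adjusted p = 0.0304), Adamts4 (-0.69, adjusted p = 0.0306) and the epimerase Dsel (-0.31, adjusted p = 0.0453). Between control strains 11 were higher and 9 lower in D2 (27.79% of all genes), led by Adamts4 (-1.40, adjusted p = 4.28e-08), the hyaluronan synthase Has1 (1.6, adjusted p = 2.92e-05) and Ptprf (0.53, adjusted p = 0.000153). In susceptible B6 mice and in D2 controls, here and in the vHPC, Adamts4 and mature oligodendrocyte markers were lower than in B6 controls. Whether Adamts4 moved with those markers was not tested. Resilient B6 mice, susceptible D2 mice and the interaction gave 0 of 64. The calls in susceptible B6 mice depended on the fit. Of all genes, 420 passed against controls and 383 against resilient mice, but 39 and 2 did with the library set as a covariate, 4 and 26 with only the groups compared, and 0 and 0 with the mouse ID prefix.

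In the vHPC, 65 of the 70 were tested. Of these, 22 rose and 11 fell in susceptible against control B6 mice, a share of genes to be read against 40.64% of all genes. Ptprf (0.63, adjusted p = 2.76e-06), the brain proteoglycan Cspg5 (0.34) and the xylosyltransferase Xylt1 (0.59) had the smallest p. Resilient against control B6 mice gave 3 higher and 4 lower (10.84% of all genes), led by Cspg5 (0.17), the protease Adamts9 (0.15) and the hyaluronidase Cemip2 (-0.14). Susceptible against resilient B6 mice gave 17 higher and 9 lower (27.63% of all genes), led by the protease inhibitor Timp2 (0.54), Ptprf (0.39) and Xylt1 (0.45). In susceptible D2 mice, 2 were higher and 2 lower against controls (4.28% of all genes), Vcan among them, with Adamts9 at 0.16 (adjusted p = 0.0292), Cspg5 at 0.15 (adjusted p = 0.0377) and the integrin Itgav at -0.11 (adjusted p = 0.0429). The control strains differed in 27 higher and 20 lower genes (59.32% of all genes), led by Ptprf (0.90), Adamts4 (-1.58) and Cemip2 (-0.49), and the interaction gave 0 of 65. With the library set as a covariate, the genes passing among all 19559 went from 7949 to 202 for susceptible and from 2120 to 41 for resilient B6 mice against controls, from 5404 to 0 between them, from 837 to 3 in susceptible D2 mice and from 11603 to 1643 between control strains. In the BNST, 1 of 64 passed in 1 comparison, the cathepsin Ctss between controls (0.58, adjusted p = 0.04).

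Of these relatives, versican was the only one to fall in the vHPC. Vcan fell by 0.25 in susceptible and by 0.12 in resilient B6 mice against controls (adjusted p = 0.000111 and 0.0199), by 0.15 in susceptible D2 mice (adjusted p = 0.0197) and by 0.29 between control strains (adjusted p = 1.8e-07). Hapln3, which adjoins Acan, rose in 2 of the 4 vHPC comparisons in which Acan fell, by 0.50 in susceptible against control B6 mice (adjusted p = 0.00939) and between control strains (95% interval 0.87 to 1.37 higher in D2, adjusted p = 1.64e-08). In resilient against control and in susceptible against resilient B6 mice it did not pass (0.34 and 0.17, adjusted p = 0.0561 and 0.388). Tnc did not pass in these vHPC comparisons, with differences of 0.03 to 0.11, and in the mPFC it fell by 0.47 in D2 controls (adjusted p = 0.0278).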

How the data were processed

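RNA of 88 libraries was depleted of ribosomal RNA and sequenced, with a different library kit in each region. After trimming and removal of PCR duplicates, the authors aligned reads to GRCm38 (STAR) and counted them over gene exons (HTSeq). The BNST table holds the deposited counts, unnormalized. For the mPFC and vHPC the authors deposited log2 CPM, made by filtering (1 CPM in at least 6 libraries), voom and a ComBat adjustment for library sets and, in the vHPC, for sequencing sets. The groups protected in that adjustment are not given in the sources used here, and the counts behind these 2 tables could not be recovered from the values, so no counting error is given for them. In the BNST, depth was 11825757 to 25793910 counts.

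Analyses were run in R 4.3.3. Values in the mPFC and vHPC were fitted with limma 3.58.1 (robust empirical Bayes), and BNST counts with edgeR 4.0.16 (quasi-likelihood test, TMM factors of 0.656 to 1.27, a minimum of 1 CPM in 6 libraries). All groups of a region entered 1 fit with a mean per group. Two-sided P-values were Benjamini-Hochberg adjusted over all 18946 (mPFC), 17515 (BNST) or 19559 (vHPC) genes, and an adjusted p under 0.05 counted as passing. BNST levels are log2 CPM with a prior count of 0.5. Symbols were matched through GENCODE M21, for 18863 of 18946 mPFC, 48435 of 48795 BNST and 19482 of 19559 vHPC identifiers.

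The genes named were the 7 members, their relatives Vcan, Hapln3 and Tnc, the 3 pathway genes with the smallest p among those that passed in each comparison, the 3 genes most correlated with each member, and the defining gene of a cell type list where it moved with a result (1 such gene is not reported here). The members and lists were chosen with earlier results of these data known. Alternatives in the BNST were DESeq2 1.42.0, RLE factors and no filter. Those in the mPFC and vHPC were a filter on mean log2 CPM, quantile normalization and empirical Bayes without the robust option. Library set was a covariate in every region, sequencing set in the vHPC alone and the prefix of the mouse ID in the mPFC alone. Only the groups compared, another gene length and leaving out each library were used in every region. BNST library sizes without TMM were an alternative chosen after seeing the data. The fits were tested on simulated data.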

Additional observations from a re-analysis of the deposited data

Results flagged for a closer look

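Each member was examined in each group of 4 to 10 mice, which gave 98 combinations of member and group. In 7 of the 98, 1 value lay far from the rest of its group relative to the range, beside about 5% given by chance. The combinations are not independent, as each library enters with all 7 members. In the mPFC, susceptible B6 replicate 4 had the lowest Tnr (8.17, next 8.53) and the lowest Hapln4 (4.10, next 4.57). In the BNST, D2 control replicate 2 had the lowest Bcan (6.09, next 7.72) and the highest Hapln1 (5.62, next 4.34). In the vHPC, D2 control replicate 2 had the highest Hapln2 (3.54, next 3.08) and the highest Hapln4 (6.48, next 6.26), and D2 control replicate 4 the highest Hapln1 (4.51, next 4.24). A test of the difference between strains also singled out Hapln2 in the vHPC, where the interaction of strain and susceptibility was 0.64 (limma adjusted p = 0.0455).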

How the results depend on the processing

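No paired analysis was possible because a mouse belongs to 1 group only and the labels carry no replicate number that groups share. No member that passed in the reported or an alternative fit changed sign. Sign changes of members that passed in neither were not counted. The number of members passing between susceptible and control, and between susceptible and resilient, B6 mice in the mPFC went from 1 to 0 with a covariate for library set or the prefix of the mouse ID, or with only the groups compared in the fit. The Hapln2 differences then were -0.68 (adjusted p = 0.10), -0.24 and -0.68 (adjusted p = 0.125) against controls. In the vHPC, library set as a covariate gave 0 members in resilient against control, susceptible against control and susceptible against resilient B6 mice and in the interaction, and sequencing set gave 0 in resilient against control mice. Susceptible against control D2 mice in the vHPC gave 1 in place of 0 members without the robust option, with a mean log2 CPM of at least 1 or with quantile normalization (Hapln2 each), and with only the groups compared (Hapln4). Only the groups compared gave 1 member in susceptible against resilient B6 mice and 2 in the interaction. Leaving out a library gave 0 to 1 members in both mPFC comparisons, and in the vHPC 3 to 5 for susceptible against control B6 mice, 2 to 5 against resilient mice, 0 to 1 for susceptible D2 mice and 0 to 1 for the interaction. All BNST alternatives gave 0 members. The prefix of the mouse ID was fitted in the mPFC alone, where the comparison of control strains could not be estimated with it. No fit with the prefix was run in the vHPC or BNST, and none with the sequencing set in the BNST.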
